A study of Mus musculus with 6 samples.

Results

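Actin filaments are built from a pool of monomers and taken apart again, and the genes described here act on both sides of that turnover. The set holds 10 genes of the 15398 that were used from the gene table, picked by name: the cofilins Cfl1 and Cfl2 and the related depolymerising factor Dstn, the LIM kinases Limk1 and Limk2, the phosphatase Ssh1, the profilin Pfn1, the nucleation factor Wasl, and Wipf1 and Wipf2, which bind proteins of the WASP family. The choice was made with results of this contrast known, so the 10 genes were in part selected on their differences and their values are given as a description, without a test of their own. They have 22 of the 49380 listed transcripts.

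The libraries came from stable lines of the mouse line bEND.3, which is described as brain endothelial. In 3 of them the cells stably expressed circSlc17a5, a circular RNA named after Slc17a5, and in the other 3 they carried an empty vector as negative control. The labels give no promoter for the construct, no time point and no number of clones, and do not state whether replicates are separate cultures, so the p-values cover only the spread among these libraries, part of which may be technical. The title of the series connects the circular RNA with VLDLR and QKI and with ocular neovascularization, and the comparison asks how the transcripts of actin regulators differ when it is expressed.

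Cofilins and destrin bind aged actin subunits in a filament, sever it and speed the loss of subunits from its end. LIM kinases switch cofilin off by phosphorylating a serine near its start, and slingshot phosphatases switch it on again. Profilin binds actin monomers and delivers them to growing ends, and N-WASP, the product of Wasl, turns on the Arp2/3 complex, which starts branches from existing filaments. WIP, the product of Wipf1, binds and stabilises WASP and N-WASP, and endothelial cells use this machinery when they migrate and form tubes.

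Library totals lay between 16848513 and 17600230 estimated counts. On the leading principal component (63.1% of the variance of log2 CPM) the circSlc17a5 libraries lay at 26.4, 18.9 and 15.6 and the empty vector libraries at -5.49, -34.0 and -21.5, so empty vector replicate 1 stood apart from the other two. The host gene Slc17a5 had 605, 495 and 492 counts in circSlc17a5 libraries and 391, 358 and 380 in empty vector libraries, and gene counts do not separate circular from linear reads. Of 12 endothelial markers, 11 were listed and 3 passed the filter on low counts. Pecam1, Cdh5 and Kdr, which define endothelial cells, averaged 0.165, 0.382 and 0.0183 TPM (transcripts scaled by length and to a fixed total per library) over the 6 libraries, and Cldn5 and Erg were at 0 in 5 of 6 libraries each, so the labelled cell type was not visible in these markers. Egfl7 made up most of the summed endothelial level of 15.4 to 16.8 TPM in circSlc17a5 libraries and 12.8 to 14.3 TPM in empty vector libraries. The keratins Krt8, Krt18 and Krt19 of simple epithelia averaged 385, 954 and 366 TPM, while Krt7, Cdh1 and Epcam of the same list averaged 0.015, 0.0183 and 0.832 TPM. The sum of the 6, almost all of it the first 3 keratins, was 1597 to 1648 TPM in circSlc17a5 libraries and 1547 to 1918 TPM in empty vector libraries. The summed level of 12 smooth muscle, mural and fibroblast markers was 16.9 to 33.2 TPM in circSlc17a5 libraries and 19.8 to 43.7 TPM in empty vector libraries. Within that list the contractile genes Acta2 and Tagln stood at 4.08 and 6.27 TPM in circSlc17a5 replicate 2 and at 3.62 and 5.79 TPM in empty vector replicate 1, against at most 1.14 TPM in the other libraries. Leukocyte markers summed to 345 to 394 TPM in circSlc17a5 libraries and 262 to 311 TPM in empty vector libraries, almost all of it Cd68, with Ptprc at 0 in 5 of 6 libraries. The 4 listed neural and glial markers summed to 7.70 to 8.38 TPM in circSlc17a5 libraries and 7.79 to 8.76 TPM in empty vector libraries. Single markers moved within these sums: of 18 tested markers over all lists, 4 rose and 3 fell by edgeR's test. Epcam was 2.32-fold, Pdgfrb 2.27-fold, Tubb3 1.84-fold and Pdgfra 1.67-fold higher in circSlc17a5 cells, and Snap25 was 1.53-fold, Des 1.52-fold and Krt18 1.37-fold lower. The part of these markers in the results was not tested, and in bulk RNA fewer cells of a type and less RNA per cell cannot be told apart.

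All 10 genes passed the filter on low counts. By edgeR's quasi-likelihood test at a Benjamini-Hochberg adjusted p under 0.05, 4 of the 10 were called, beside 22.0% of all 11722 tested genes. Of the 4, Cfl2, Wasl and Wipf1 rose (11.8% of all tested genes rose) and Pfn1 fell (10.2% of all tested genes fell). The levels of the groups did not overlap for 6 of the 10 genes, the 4 called genes and Limk1 and Ssh1, beside 42.6% of all tested genes. The median log2 fold change, circSlc17a5 over empty vector, was 0.09 over the 10 genes and -0.002 over all tested genes. Because the genes were chosen with this contrast known, nothing is read from these counts. In the authors' deposited comparison of the same groups, the same 4 genes had a q-value under 0.05 and the other 6 did not. The share of all genes under that q-value was not counted, and nothing is read from this either.

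**Figure D1:**
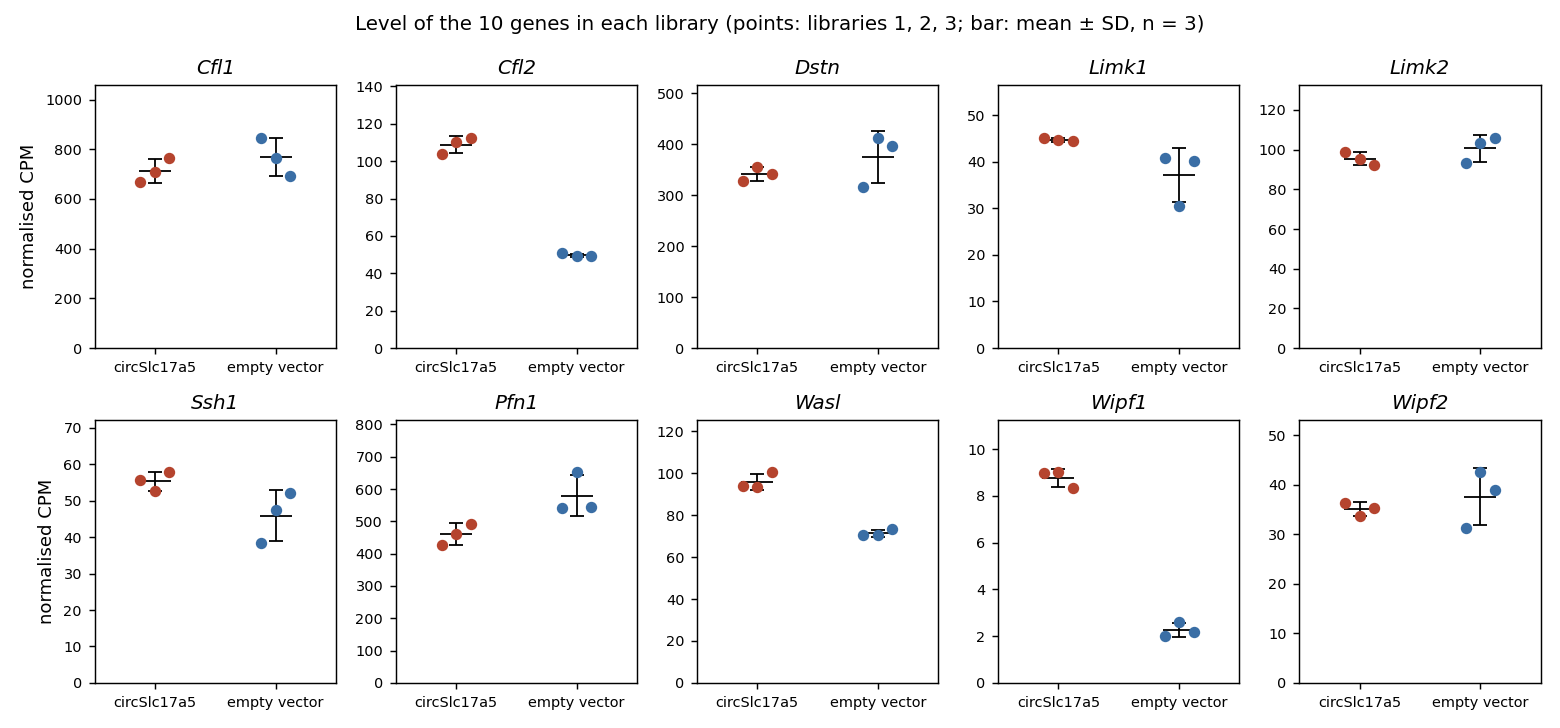
Normalised CPM (counts scaled to a common library total with TMM factors) of the 10 genes, with 1 point per library and the mean ± SD of 3 libraries in each group, circSlc17a5 on the left of each panel and empty vector on the right; each vertical axis starts at 0. Cfl2, Wasl and Wipf1 lie higher in all 3 circSlc17a5 libraries and Pfn1 lies lower, while Cfl1, Dstn, Limk2 and Wipf2 overlap.

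Per unit of length, Pfn1 and Cfl1 were the most abundant of the 10 and Wipf1 the least. Cfl1 averaged 798 ± 33.8 TPM and Pfn1 786 ± 26.4 TPM in circSlc17a5 cells, against 754 ± 96.4 TPM for Cfl1 and 863 ± 49.0 TPM for Pfn1 in empty vector cells (SD, n = 3 libraries each), and the libraries of these neighbours overlapped in both groups. Dstn came next with 214 ± 9.02 TPM in circSlc17a5 cells and 206 ± 21.8 TPM in empty vector cells. Cfl2, Limk2 and Wasl followed at 41.6 ± 1.62, 31.2 ± 3.36 and 24.4 ± 1.64 TPM in circSlc17a5 cells. In empty vector cells Limk2 led these genes at 30.3 ± 2.21 TPM, and Cfl2 and Wasl, at 16.7 ± 0.95 and 16.0 ± 0.93 TPM, lay within each other's spread. Below them were Limk1, Ssh1, Wipf2 and Wipf1, with 15.0, 7.02, 4.90 and 2.13 TPM in circSlc17a5 cells and 11.2, 5.10, 4.57 and 0.48 TPM in empty vector cells. Ssh1 and Wipf2 overlapped in empty vector libraries and did not in circSlc17a5 libraries.

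Among the genes that take filaments apart, Cfl2 was the one whose level differed between the groups. Cfl2 is the cofilin best known from muscle (Entrez 12632, chromosome 12, 54858815 to 54863667 in the deposited table, minus strand in RefSeq). Its counts were 1860, 1918 and 1923 in circSlc17a5 libraries, against 864, 818 and 833 in empty vector libraries. In normalised CPM these were 104, 110 and 113 in circSlc17a5 libraries and 50.7, 49.5 and 49.1 in empty vector libraries, so the groups were far apart and the libraries of each lay close together. The log2 fold change was 1.13 ± 0.07 (SE), a 2.19-fold higher level in circSlc17a5 cells. At least 96.6% of the Cfl2 count in every library was assigned to a single transcript, NM_007688.2.

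Cfl1, the cofilin of most non-muscle cells (Entrez 12631, chromosome 19, 5490455 to 5494031, plus strand), had 11930, 12363 and 13047 counts in circSlc17a5 libraries and 14438, 12647 and 11764 in empty vector libraries. The ranges overlapped, with empty vector replicate 1 the highest and empty vector replicate 3 the lowest of the 6 by count. In normalised CPM the lowest was circSlc17a5 replicate 1, at 667, and empty vector replicate 3 stood at 693. The log2 fold change of Cfl1 was -0.11 ± 0.09 (SE). Dstn, which encodes destrin (Entrez 56431, chromosome 2, 143915331 to 143943324, plus strand), had 5868, 6213 and 5846 counts in circSlc17a5 libraries and 5395, 6838 and 6729 in empty vector libraries, with a log2 fold change of -0.13 ± 0.10 (SE). By count, empty vector replicate 1 was the lowest of the 6 libraries and the other 2 empty vector libraries were the highest. Without empty vector replicate 1, its log2 fold change was -0.24 and edgeR called it.

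Cfl2 was a small share of the family in both groups. Cfl1, Dstn and Cfl2 summed to 1054 ± 36.7 TPM in circSlc17a5 cells and to 977 ± 75.4 TPM in empty vector cells. The sum in empty vector replicate 1, 1063 TPM, lay within the 1012 to 1081 TPM of circSlc17a5 libraries. In normalised CPM, Cfl1 averaged 713 in circSlc17a5 cells and 768 in empty vector cells, and Dstn 342 and 375. The order of the groups for Cfl1 and Dstn thus depends on the scale, and no difference in the family total is read from the sum. Cfl2 made up 4.002, 3.96 and 3.88% of that sum in circSlc17a5 libraries and 1.66, 1.67 and 1.80% in empty vector libraries. Cfl1 made up 75.7 ± 0.99% in circSlc17a5 cells and 77.0 ± 3.77% in empty vector cells, and Dstn 20.4 ± 0.93% in circSlc17a5 cells and 21.2 ± 3.72% in empty vector cells. The share of Cfl2 did not overlap between the groups, and those of Cfl1 and Dstn did.

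**Figure D2:**
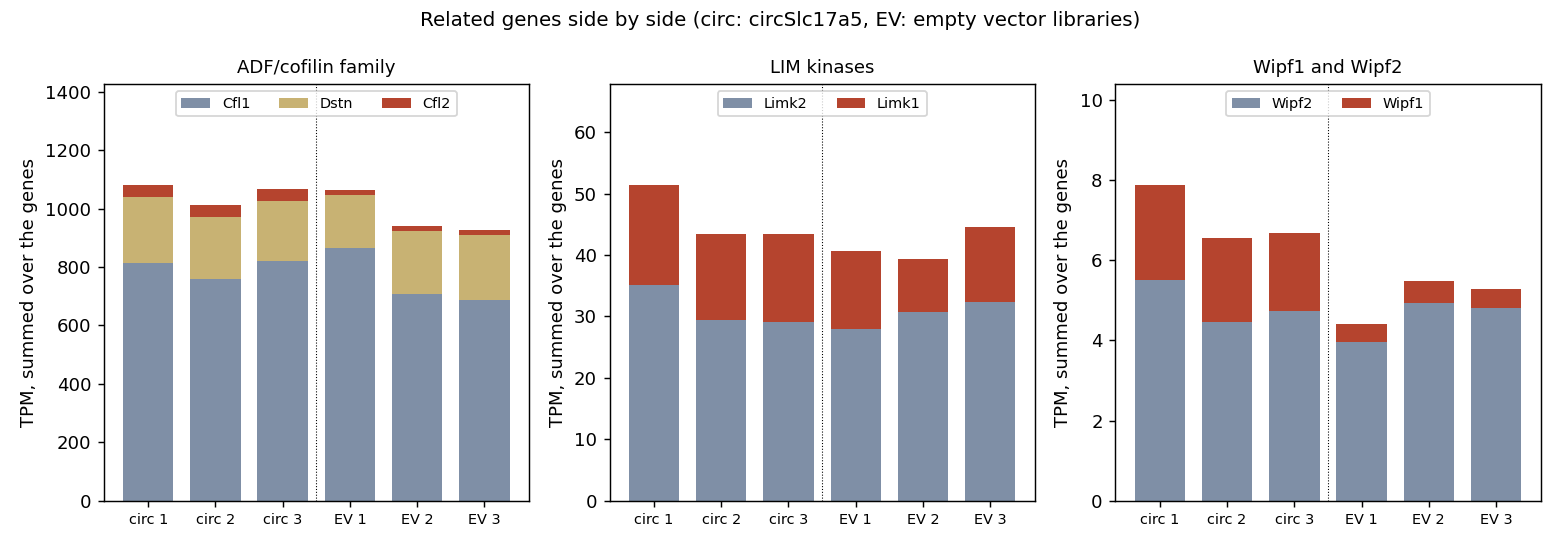
TPM of related genes stacked for each library (vertical axes from 0), with the 3 circSlc17a5 libraries left of the dotted line and the 3 empty vector libraries right of it. In the left panel the thin Cfl2 layer is thicker in the circSlc17a5 libraries, at 3.88 to 4.002% of the family against 1.66 to 1.80%; in the right panel Wipf1 is 29.1 to 31.8% of Wipf1 plus Wipf2 in circSlc17a5 libraries against 8.88 to 10% in empty vector libraries.

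The start regions of both cofilins are printed because the genes behaved differently while their products are close relatives. Each window holds 250 bases before a first base listed by RefSeq and 50 from it on. It is read 5′ to 3′ on the strand of the gene from RefSeq (GRCm38.p6). Capitals mark matches, as written or as the reverse complement, to the motif CCAAT and to the motif GGGCGG. Matches of the same or of different motifs may overlap. The Cfl2 window is chr12:54862828-54863127 on the minus strand and the Cfl1 window is chr19:5490205-5490504 on the plus strand. The first base used for Cfl2 is 54862877, inside the deposited span of the gene, which ends at 54863667.
Cfl2: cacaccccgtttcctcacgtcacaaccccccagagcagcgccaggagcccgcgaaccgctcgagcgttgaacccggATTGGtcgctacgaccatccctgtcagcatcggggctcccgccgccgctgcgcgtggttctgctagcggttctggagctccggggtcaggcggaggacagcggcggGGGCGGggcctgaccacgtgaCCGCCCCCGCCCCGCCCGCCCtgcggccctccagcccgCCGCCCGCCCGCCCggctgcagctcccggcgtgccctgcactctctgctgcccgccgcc
Cfl1: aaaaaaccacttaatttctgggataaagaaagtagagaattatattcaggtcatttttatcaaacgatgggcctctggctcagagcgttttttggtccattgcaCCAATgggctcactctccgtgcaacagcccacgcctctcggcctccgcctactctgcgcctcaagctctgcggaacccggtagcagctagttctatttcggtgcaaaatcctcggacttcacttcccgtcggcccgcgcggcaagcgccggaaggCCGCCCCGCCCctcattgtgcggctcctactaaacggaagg
The Cfl2 window held 8 GGGCGG matches and 1 CCAAT match at a GC content of 75.3%, and the Cfl1 window 2 GGGCGG matches and 1 CCAAT match at 54.7%. Over the 15 windows that RefSeq lists for the 10 genes, 11 held GGGCGG and 7 held CCAAT, beside 35.6% and 37.4% of 32817 windows of the same length. The CArG box, the element bound by serum response factor, was searched on both strands and found in 0 of the 15 windows and in 1.63% of all windows, and TATAAA, searched on the strand of the gene, in 0 of the 15 and in 8.33%. These are matches of letters and say nothing of binding.

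The kinases and the phosphatase that act on cofilin were not called. Limk1 (Entrez 16885, chromosome 5, 134656039 to 134689859, minus strand) had 808, 777 and 757 counts in circSlc17a5 libraries and 695, 503 and 682 in empty vector libraries. Its levels of 45.2, 44.6 and 44.3 CPM in circSlc17a5 libraries all lay above the 40.8, 30.4 and 40.2 CPM of empty vector libraries, where replicate 2 was far below the other 2. The log2 fold change was 0.27 ± 0.11 (SE), and it was 0.14 without empty vector replicate 2 and 0.34, and then called, without empty vector replicate 1. Limk2 (Entrez 16886, chromosome 11, 3343297 to 3409256, minus strand) had 1765, 1664 and 1573 counts in circSlc17a5 libraries and 1587, 1707 and 1801 in empty vector libraries, with overlapping groups and a log2 fold change of -0.08 ± 0.07 (SE). Limk1 was 32.4 ± 0.62% of the summed TPM of both LIM kinases in circSlc17a5 cells and 27.0 ± 4.58% in empty vector cells, and empty vector replicate 1, at 31.3%, lay close to the 31.9 to 33.1% of the circSlc17a5 libraries.

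Ssh1, a slingshot phosphatase (Entrez 231637, chromosome 5, 113937094 to 113993803, minus strand in RefSeq), had 996, 917 and 987 counts in circSlc17a5 libraries and 653, 783 and 884 in empty vector libraries. In CPM these were 55.7, 52.6 and 57.8 in circSlc17a5 libraries and 38.3, 47.3 and 52.1 in empty vector libraries, so the groups were apart by less than 1 CPM at their nearest. The log2 fold change was 0.27 ± 0.11 (SE). With a correction for GC content and transcript length it was 0.06, and without empty vector replicate 1 it was 0.15. Ssh1 has the longest transcript of the 10 genes, at 8436 bases.

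The split of Limk1 between its listed transcripts differed more than its total. The transcript from the upstream start, NM_010717.3, had 689, 739 and 512 estimated counts in circSlc17a5 libraries and 367, 269 and 401 in empty vector libraries. The transcript from an internal start 10350 bases downstream, NM_001305875.1, had 69.8, 0 and 197 in circSlc17a5 libraries and 306, 230 and 264 in empty vector libraries. The groups did not overlap for either transcript, and the shares of these transcripts in the gene moved in opposite directions. The remaining listed transcript, XM_006504396.4, had 49.2, 37.7 and 47.8 estimated counts in circSlc17a5 libraries and 22.5, 3.66 and 16.5 in empty vector libraries, also without overlap. How many of all listed transcripts do not overlap was not counted, so nothing is read from the lack of overlap. The 42.6% of all tested genes without overlap was taken on normalised CPM of genes, not on estimated transcript counts. The upstream transcript made up 82.7 ± 14.0% of the Limk1 count in circSlc17a5 cells and 55.1 ± 3.31% in empty vector cells, and the internal one 11.6 ± 13.3% in circSlc17a5 cells and 42.8 ± 3.63% in empty vector cells (SD, n = 3 libraries each). The internal share ranged from 0 to 26.1% among circSlc17a5 libraries, and the difference of the means lay between -38.5 and -25.5 percentage points with any 1 library left out. The transcripts have 16 and 15 exons, of which 13 are identical, and they begin at different start codons. Reads from identical exons are shared out by an estimate with no interval in the files, and a 0 in 1 library can be a failed estimate.

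The windows around both Limk1 starts are printed as these are the ends by which the transcripts differ. Both are on the minus strand, with capitals as for the cofilins. The upstream window is chr5:134688541-134688840 and the internal window is chr5:134678199-134678498. The first base used for the upstream window is 134688590, inside the listed span of the gene, which ends at 134689859.
Limk1 upstream start: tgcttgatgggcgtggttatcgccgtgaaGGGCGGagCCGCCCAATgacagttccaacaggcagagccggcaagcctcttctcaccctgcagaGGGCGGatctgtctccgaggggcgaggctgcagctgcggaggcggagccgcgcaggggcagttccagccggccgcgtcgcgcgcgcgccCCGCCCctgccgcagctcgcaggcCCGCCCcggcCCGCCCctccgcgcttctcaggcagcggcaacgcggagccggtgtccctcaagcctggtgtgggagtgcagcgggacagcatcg
Limk1 internal start: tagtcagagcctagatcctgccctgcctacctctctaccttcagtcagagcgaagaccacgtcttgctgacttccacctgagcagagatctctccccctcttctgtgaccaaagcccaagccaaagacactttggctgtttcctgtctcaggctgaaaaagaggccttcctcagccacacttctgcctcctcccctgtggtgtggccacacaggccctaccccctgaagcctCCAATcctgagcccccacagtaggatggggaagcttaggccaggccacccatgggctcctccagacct
The upstream window held 6 GGGCGG matches, 1 CCAAT match and 35 CG dinucleotides, and the internal window 0 GGGCGG matches, 1 CCAAT match and 2 CG dinucleotides.

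The 6 listed Limk2 transcripts were divided unevenly too. XM_006514548.3 had 910, 916 and 753 estimated counts in circSlc17a5 libraries and 647, 481 and 648 in empty vector libraries. XM_030245611.1 had 570, 471 and 523 in circSlc17a5 libraries and 606, 1141 and 920 in empty vector libraries. Neither pair of groups overlapped. Here too the share of all listed transcripts without overlap was not counted, and nothing is read from the lack of overlap. The first transcript was 51.5 ± 3.61% of the gene in circSlc17a5 cells and 35.0 ± 6.36% in empty vector cells. The second was 31.3 ± 2.63% in circSlc17a5 cells and 52.1 ± 14.3% in empty vector cells. The wider spread was in the empty vector libraries, where the share of the second ranged from 38.2 to 66.9%. For Ssh1, NM_001363469.1 took 13.5, 0 and 19.0% of the gene in circSlc17a5 libraries and 24.0, 0 and 32.8% in empty vector libraries, so the split differed as much between libraries of a group as between the groups.

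**Figure D3:**
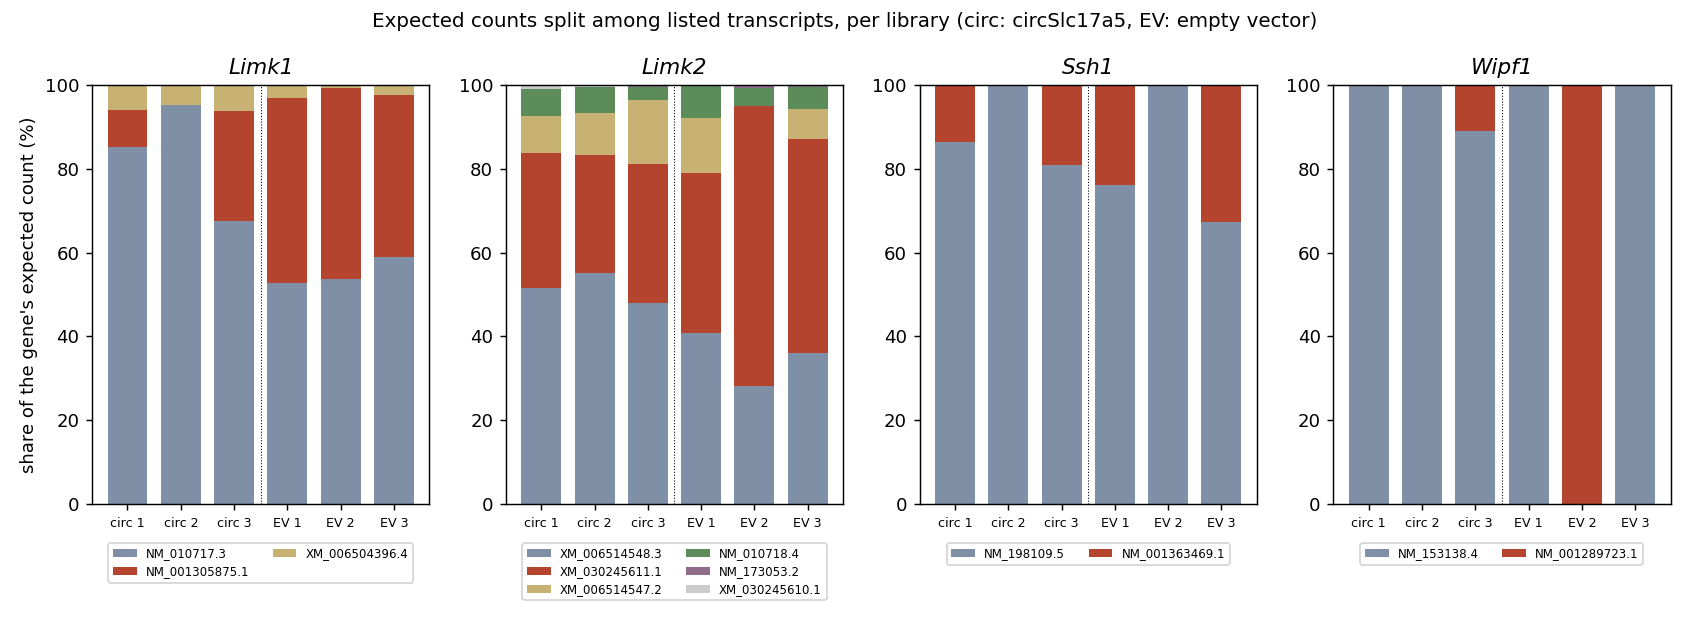
Share of the estimated count of a gene (percent, 0 to 100) given to each listed transcript of Limk1, Limk2, Ssh1 and Wipf1, in the 3 circSlc17a5 libraries left of the dotted line and the 3 empty vector libraries right of it. The internal-start transcript NM_001305875.1 of Limk1 holds 0 to 26.1% in circSlc17a5 libraries and 38.7 to 45.7% in empty vector libraries. For Ssh1, NM_198109.5 holds most of the estimate in every library, at 67.2 to 100%. For Wipf1, NM_153138.4 holds 89.1 to 100% in every library except empty vector replicate 2, where it is at 0.

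Pfn1, the main profilin of non-muscle cells (Entrez 18643, chromosome 11, 70651844 to 70656799, minus strand in RefSeq), was lower in circSlc17a5 cells. Its counts were 7634, 8055 and 8421 in circSlc17a5 libraries and 9211, 10783 and 9260 in empty vector libraries. In CPM it stood at 427, 462 and 493 in circSlc17a5 libraries and at 540, 652 and 545 in empty vector libraries, with no overlap and with empty vector replicate 2 highest. The log2 fold change was -0.33 ± 0.09 (SE), a 1.26-fold lower level in circSlc17a5 cells. The call was the least firm of the 4: it ended without circSlc17a5 replicate 1, 2 or 3 (log2 fold changes -0.28, -0.33 and -0.38) and without empty vector replicate 2 or 3 (-0.24 and -0.37), and it was kept without empty vector replicate 1 (-0.38). With the correction for GC content and transcript length the log2 fold change was -0.15 and no longer called. Pfn1 has the shortest transcript of the 10 genes, at 861 bases, and its listed span overlaps that of Eno3, an enolase gene that also fell (log2 fold change -0.29 ± 0.07, SE). Its counts were not whole numbers in any of the 6 libraries, within a tolerance of 0.005. Processed copies of Pfn1 and Cfl1 are known in mammalian genomes, and the sources used here do not say how reads shared with such copies were assigned.

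Wasl and Wipf1, whose products act as a complex, were both higher in circSlc17a5 cells. Wasl (Entrez 73178, chromosome 6, 24613810 to 24664995, minus strand) had 1678, 1628 and 1716 counts in circSlc17a5 libraries and 1202, 1165 and 1247 in empty vector libraries. At 93.8, 93.4 and 100.5 CPM in circSlc17a5 libraries and 70.5, 70.4 and 73.4 CPM in empty vector libraries, the groups were well apart and each varied little. The log2 fold change was 0.42 ± 0.07 (SE), a 1.34-fold higher level, and 0.29 with the correction for GC content and transcript length, where it was still called.

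Wipf1 (Entrez 215280, chromosome 2, 73421910 to 73529487, minus strand in RefSeq) had the largest difference of the 10 genes and the lowest level. Its counts were 161, 157 and 142 in circSlc17a5 libraries and 34, 43 and 37 in empty vector libraries, or 8.998, 9.01 and 8.32 CPM in circSlc17a5 libraries and 1.99, 2.60 and 2.18 CPM in empty vector libraries. All circSlc17a5 libraries lay far above all empty vector libraries. The log2 fold change was 1.96 ± 0.15 (SE), a 3.88-fold higher level in circSlc17a5 cells. Another listed gene, LOC115489562, overlaps the span of Wipf1 and had 1, 1 and 2 counts in circSlc17a5 libraries and 0 in each empty vector library. Wipf2, which encodes a relative of WIP (Entrez 68524, chromosome 11, 98863598 to 98905578, plus strand), had 650, 587 and 602 counts in circSlc17a5 libraries and 533, 703 and 660 in empty vector libraries, with overlapping groups and a log2 fold change of -0.10 ± 0.11 (SE). Wipf1 therefore made up 30.1, 31.8 and 29.1% of the summed TPM of Wipf1 and Wipf2 in circSlc17a5 libraries and 10, 9.69 and 8.88% in empty vector libraries. Wipf2 was the more abundant gene of the pair in every library.

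Which of its starts Wipf1 used could not be read from the estimates. Nearly all counts went to NM_153138.4 in circSlc17a5 libraries (161, 157 and 126), as in empty vector replicates 1 and 3 (34 and 37), but empty vector replicate 2 had all of its 43 counts on NM_001289723.1. The transcripts have 8 exons each, 6 of them identical, share a start codon and begin 43971 bases apart by their GENCODE starts. The GENCODE start of NM_153138.4 is base 73529734, whereas the upstream window below is placed on the RefSeq first base, 73529487. Nearly all of that window therefore lies downstream of the GENCODE start. The difference in the share of NM_153138.4 was 29.7 percentage points, and -3.64 without empty vector replicate 2. The windows of the upstream start (chr2:73529438-73529737) and of the internal start (chr2:73485704-73486003), both on the minus strand, are printed as the ends that separate the transcripts of the gene with the largest difference, with capitals as above.
Wipf1 upstream start: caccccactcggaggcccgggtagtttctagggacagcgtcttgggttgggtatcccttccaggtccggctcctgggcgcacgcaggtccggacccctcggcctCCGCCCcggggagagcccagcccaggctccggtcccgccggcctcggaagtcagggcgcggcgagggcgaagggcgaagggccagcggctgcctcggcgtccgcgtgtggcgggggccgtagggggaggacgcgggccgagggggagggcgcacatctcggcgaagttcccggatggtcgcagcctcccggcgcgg
Wipf1 internal start: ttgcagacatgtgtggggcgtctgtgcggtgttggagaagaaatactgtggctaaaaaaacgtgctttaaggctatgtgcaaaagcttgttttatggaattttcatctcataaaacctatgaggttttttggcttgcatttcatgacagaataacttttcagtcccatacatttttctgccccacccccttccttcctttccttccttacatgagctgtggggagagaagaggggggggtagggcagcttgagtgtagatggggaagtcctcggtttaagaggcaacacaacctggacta
The upstream window held 1 GGGCGG match and 37 CG dinucleotides, and the internal window 0 matches to any of the motifs and 4 CG dinucleotides.

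By Pearson correlation of log2 CPM over the 6 libraries, the genes outside the set most like Wipf1 were Foxm1, a transcription factor of the cell cycle (r = 0.997), Rab11fip1, an adaptor of recycling endosomes (r = 0.996), and Nmnat2, an enzyme of NAD synthesis (r = 0.995). Foxm1 had 21.3, 21.1 and 21.3 CPM in circSlc17a5 libraries and 16.0, 16.5 and 16.2 CPM in empty vector libraries, so the pattern shared with Wipf1 was mainly the step between the groups. Those most like Cfl1 were Zfp944 (r = 0.993), Trp53rkb (r = 0.991) and Cyb5a, a cytochrome b5 (r = 0.989). Cyb5a had 74.5, 79.1 and 82.5 CPM in circSlc17a5 libraries and 88.7, 83.7 and 76.0 CPM in empty vector libraries, with the same order of libraries within each group as Cfl1. The libraries share their group and their depth in these correlations.

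**Figure D4:**
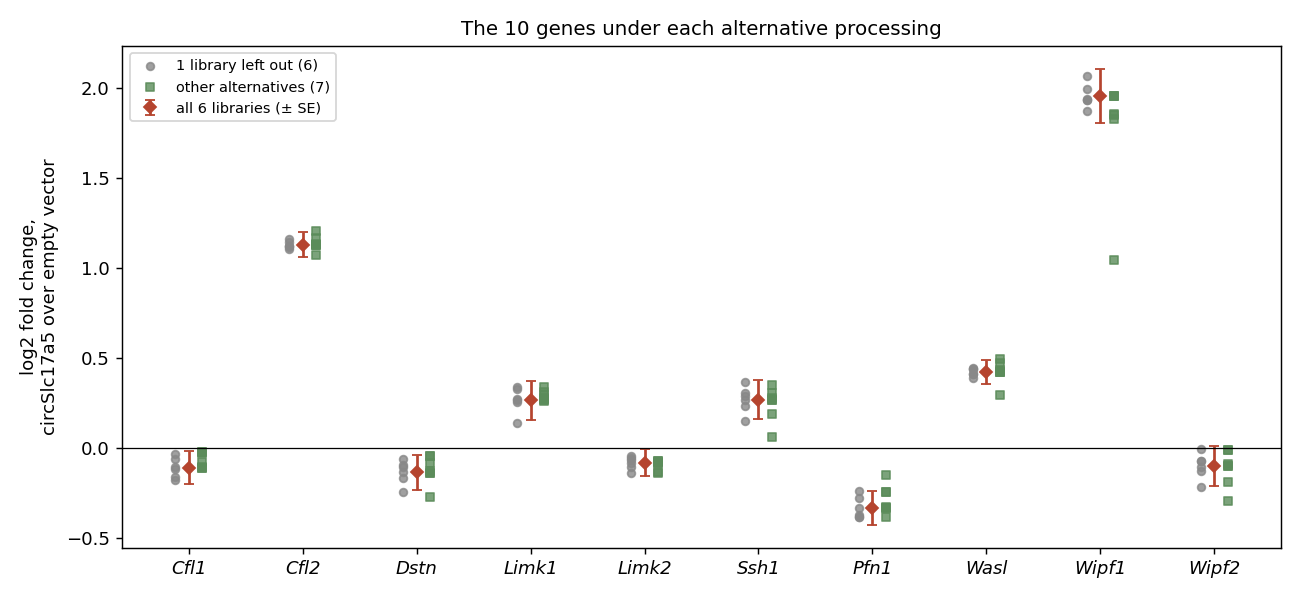
Log2 fold change, circSlc17a5 over empty vector, of each of the 10 genes from all 6 libraries (diamonds, ± SE), with 1 library left out (circles, 6 per gene) and under the 7 other alternatives (squares). Cfl2, Wasl and Wipf1 stay above 0 by more than their SE throughout; Wipf1 drops to 1.04 on log2(FPKM + 1), where the pseudocount weighs on a low gene, and the value of Pfn1 nearest to 0 is -0.15, with the correction for GC content and length.

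To place the 10 genes, 138 further genes of actin assembly were listed in 9 roles. Of these, 132 were in the table and 119 were tested, 19 rose and 15 fell by edgeR's test over all genes, and 85 were not called. The called share of 28.6% stands beside 22.0% of all tested genes, and the median log2 fold change was 0.04. The median transcript length was 4582 bases for genes of the list that rose and 2233 bases for those that fell, as over all genes, where the medians were 4512 and 2137 bases against 3148 bases for genes not called. With the correction for GC content and transcript length, 18 rose and 24 fell, and on log2(FPKM + 1) 20 rose and 10 fell. The count depended on single libraries: it was 6, 8 and 11 without circSlc17a5 replicates 1, 2 and 3, and 64, 9 and 10 without empty vector replicates 1, 2 and 3. Over all tested genes the count moved in the same directions from 2584. There it was 462, 697 and 1085 without circSlc17a5 replicates 1, 2 and 3, and 4699, 999 and 756 without empty vector replicates 1, 2 and 3. Counts per role with 1 library left out, given below, stand beside these moves over all genes. Of the 34 calls, 6 were kept with each library left out, among them those of Twf1, Ssh3, Nckap1l, Daam1 and Mical2. The other 28 ended without at least 1 library, with a highest adjusted p between 0.0547 and 0.183, and 21 of them ended without each library other than empty vector replicate 1. No called gene of the list changed sign in any of the 13 alternatives.

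The largest rise in the list was next to the cofilins. Of 13 tested co-factors and further kinases and phosphatases of cofilin, 2 rose and 0 fell, a called share of 15.4% beside the 22.0% of all tested genes. Ssh3, a slingshot phosphatase, had 60, 65 and 68 counts in circSlc17a5 libraries and 14, 16 and 13 in empty vector libraries, a 4.31-fold higher level (log2 fold change 2.11 ± 0.21, SE; edgeR adjusted p = 4.7e-04). It stood at 1.49 TPM in circSlc17a5 cells and 0.303 TPM in empty vector cells, below Ssh1 in both. Tesk2, a kinase that phosphorylates cofilin, was 1.88-fold higher (log2 fold change 0.91 ± 0.29, SE) at 3.05 ± 0.41 CPM in circSlc17a5 cells and 1.62 ± 0.78 CPM in empty vector cells, a call that ended without each library other than empty vector replicate 1. Without empty vector replicate 1, 2 of these genes rose and 3 fell. With the correction for GC content and transcript length, 3 of these genes rose and 4 fell.

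Among actin and the proteins that bind its monomers, 1 of 8 tested genes rose and 2 fell, a called share of 37.5% beside 22.0% of all tested genes. Twf1, a twinfilin that binds monomers and caps filament ends, had 97.8, 100.002 and 102.4 CPM in circSlc17a5 libraries and 70.7, 73.8 and 75.9 CPM in empty vector libraries (log2 fold change 0.45 ± 0.07, SE). Actb, the main non-muscle actin, had 900, 1006 and 989 CPM in circSlc17a5 libraries and 1202, 1708 and 1310 CPM in empty vector libraries (-0.54 ± 0.12, SE), and its call ended without empty vector replicate 3 or circSlc17a5 replicate 1 or 2. Tmsb4x, which sequesters monomers, fell with a log2 fold change of -0.36 ± 0.09 (SE), which was -0.22 with the correction for GC content and transcript length, and its call ended without each library other than empty vector replicate 1. The actin gene Actg1, the profilin Pfn2, the thymosin Tmsb10 and Cap1, which were not called, had log2 fold changes of -0.10, -0.06, -0.22 and 0.04. Processed copies of Actb and Tmsb4x are known as well.

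Of the 10 Arp2/3 genes, all tested, 0 rose and 3 fell, a called share of 30% beside 22.0% of all tested genes. With the correction for GC content and transcript length 2 fell, and on log2 FPKM values 1 rose and 2 fell. Arpc5 and Arpc4, which encode subunits of the complex, had log2 fold changes of -0.30 ± 0.07 and -0.39 ± 0.10 (SE). Arpc4 stood at 95.1, 105.4 and 105.7 CPM in circSlc17a5 libraries and at 120.0, 156.0 and 124.7 CPM in empty vector libraries. All 3 Arp2/3 calls ended without each library other than empty vector replicate 1, without which 5 fell. Of the genes not called, Actr3 had higher levels in each circSlc17a5 library than in any empty vector library (log2 fold change 0.24 ± 0.09 SE, edgeR adjusted p = 0.0736). Arpc5l had lower levels in each circSlc17a5 library than in any empty vector library (-0.20 ± 0.08 SE, edgeR adjusted p = 0.0848). Arpin too had higher levels in each circSlc17a5 library than in any empty vector library (0.12 ± 0.08 SE, edgeR adjusted p = 0.321). Arpc1a and Arpc3 had log2 fold changes of -0.22 and -0.11, and Actr2 and Arpc1b both of 0.03. The median over the 10 was -0.15. Of 20 tested WASP and WAVE proteins and partners, 4 rose and 3 fell, a called share of 35% beside 22.0% of all tested genes. With the correction for GC content and transcript length 3 rose and 5 fell. Nckap1l, a WAVE complex subunit best known from blood cells, had 40.6, 37.1 and 40.2 CPM in circSlc17a5 libraries and 29.4, 25.1 and 27.9 CPM in empty vector libraries (0.52 ± 0.09, SE). Wasf1, which encodes WAVE1, rose (0.58 ± 0.15, SE), and the WAVE partner Abi3 and the membrane-bending protein gene Trip10 fell (-0.62 ± 0.14 and -0.27 ± 0.08, SE). The calls of Wasf1 and Trip10 ended without each library other than empty vector replicate 1, and that of Abi3 without each circSlc17a5 library. Without empty vector replicate 1, 8 genes of this role rose and 6 fell, and without each other library 1 rose and 0 or 1 fell.

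Formins and Ena/VASP proteins extend unbranched filaments, and of 17 tested genes 5 rose and 0 fell, with a median log2 fold change of 0.30. The called share was 29.4%, beside 22.0% of all tested genes. With the correction for GC content and transcript length, 4 rose and 2 fell and the median was 0.08. Without empty vector replicate 1, 7 rose and 1 fell, without empty vector replicate 3, 2 rose, and without each other library 1 rose. Daam1, a formin, had 49.6, 40.3 and 44.5 CPM in circSlc17a5 libraries and 32.3, 28.5 and 28.6 CPM in empty vector libraries, a 1.504-fold higher level (log2 fold change 0.59 ± 0.10, SE). Spire1, a nucleator, rose (0.31 ± 0.08, SE), and that call ended with the correction and without each library other than empty vector replicate 1.

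Of 15 tested capping and severing genes, 3 rose and 4 fell, a called share of 46.7% beside 22.0% of all tested genes. Mical2, an enzyme that oxidises actin, had 38.2, 28.1 and 30.0 CPM in circSlc17a5 libraries and 20.6, 19.0 and 22.7 CPM in empty vector libraries (log2 fold change 0.63 ± 0.12, SE), and Eps8, a capping protein, rose as well (0.45 ± 0.09, SE), a call that ended without circSlc17a5 replicate 1. The capping protein gene Capg and Mical1, a relative of Mical2, fell (-0.37 ± 0.09 and -0.28 ± 0.08, SE). Without empty vector replicate 1, 6 of this role rose and 6 fell, and without each other library 1 or 2 rose and 0 fell. Of 18 tested bundling, cross-linking and tropomyosin genes, 2 rose and 2 fell, a called share of 22.2%, near the 22.0% of all tested genes. The filament cross-linker Flnc and the adhesion protein gene Vcl rose (0.41 ± 0.12 and 0.29 ± 0.09, SE) and the tropomyosins Tpm2 and Tpm3 fell (-0.38 ± 0.10 and -0.25 ± 0.07, SE). The calls of Flnc and Vcl ended with the correction for GC content and transcript length, under which 0 of this role rose and 3 fell. Without empty vector replicate 1, 8 rose and 3 fell, without circSlc17a5 replicate 3, 1 rose and 1 fell, and without each other library 0 were called. Of 4 tested genes of serum response factor and its partners, which drive many actin genes, 0 were called, and with the correction Srf itself rose (log2 fold change 0.28, edgeR adjusted p = 0.0494). The co-activator gene Mrtfa had a log2 fold change of 0.02 ± 0.08 (SE) and Fhl2, a cofactor, of -0.04 ± 0.08 (SE).

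**Figure D5:**
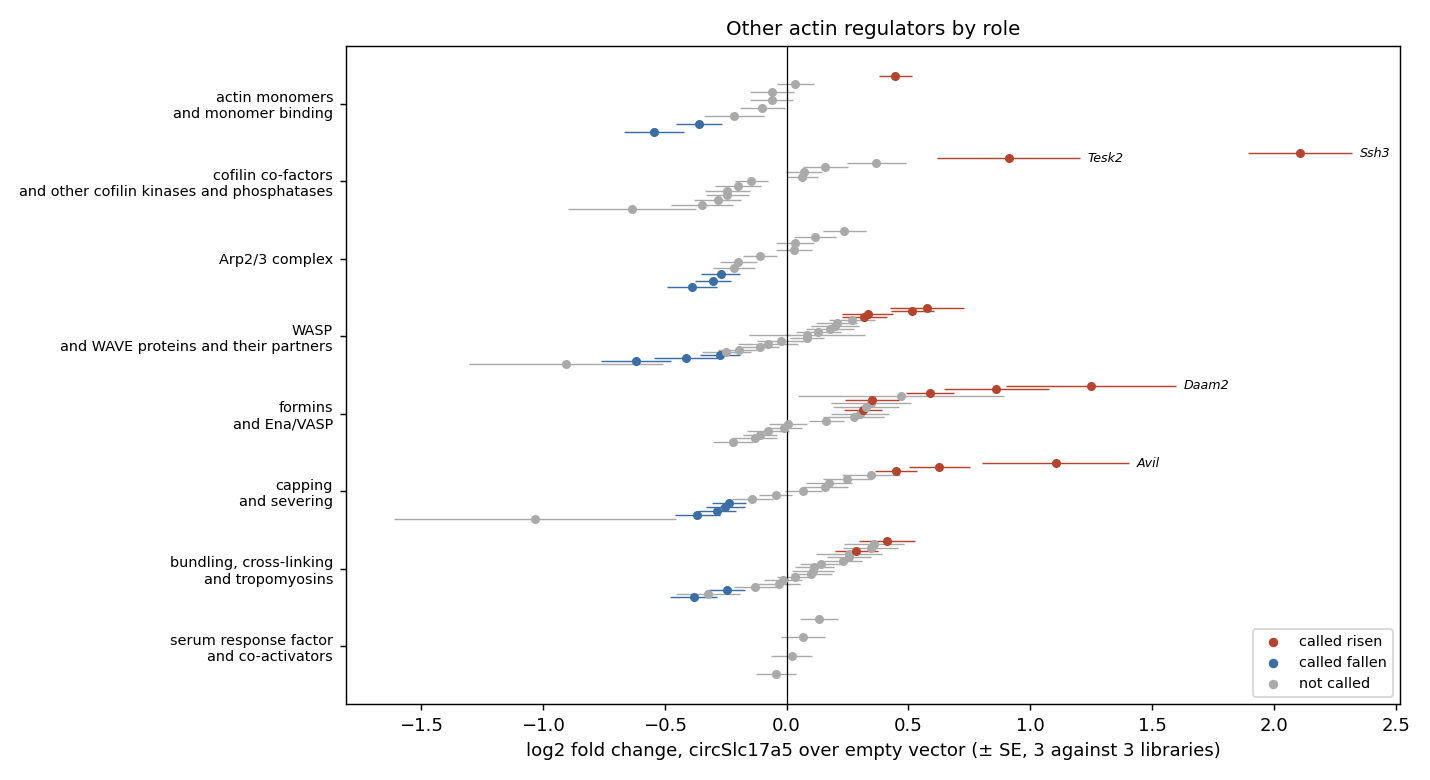
Log2 fold change, circSlc17a5 over empty vector, with SE bars for 105 tested genes of the wider list in 8 of its 9 roles, 1 band per role, sorted within a band; genes called risen are red, called fallen blue and not called grey. Ssh3 at 2.11 lies farthest from 0. The Arp2/3 band has calls on the lower side alone and the formin band on the higher side alone. On log2 FPKM values, however, 1 Arp2/3 gene rose, and with the correction for GC content and length 2 genes of the formin band fell. Over all tested genes 11.8% rose and 10.2% fell.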

How the data were processed

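RNA of 6 libraries of stable bEND.3 lines (3 circSlc17a5, 3 empty vector) was extracted with TRIzol and prepared with a SMARTer mRNA-Seq kit, per the labels' protocols. The submitters' processing notes name RSEM 1.2.12, Bowtie2 2.2.5 and HISAT2 2.0.4 without their roles. Genome build, filters and strand of counting are not given in these sources. The authors deposited expected counts (estimates that need not be whole), FPKM and TPM per gene and per transcript, per the file headers. A further table deposited by the authors holds log2 fold changes, p-values and q-values from DESeq2, of which the version is not given. Of 15399 listed genes, 15398 had an annotation entry and were used; 0 per-library columns were left out.

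The 10 genes, the 138 further genes and the tests were chosen with earlier results of these data known. Counts were rounded, filtered with filterByExpr and scaled by TMM. The two-sided quasi-likelihood F test of edgeR 4.0.16 in R 4.3.3 was run over all 6 libraries with no covariate. Genes were called at a Benjamini-Hochberg adjusted p under 0.05 over all 11722 tested genes. SE was taken as the size of the log2 fold change over the root of F. The procedure was tested on simulated data. Alternatives were DESeq2 1.42.0, limma-trend 3.58.1 on log2(FPKM + 1) and log2(FPKM + 0.1), no filter, a replicate block, each library left out, empty vector replicate 1 and circSlc17a5 replicate 2 left out together, and an offset from transcript length and GC content (splines with 4 degrees of freedom each, longest protein-coding GENCODE M21 transcript, 98.2% of tested genes). Libraries of a group differed by more than sampling noise (2.26 to 24.6 times the variance of counting per gene).

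Named genes were the 10, the 3 most like Wipf1 and Cfl1, and cell type markers. Per role of the further list, up to 2 risen and 2 fallen ranked by adjusted p were named, or where none was called the 2 of highest CPM. Outside that rule, genes not called were named as well: Actg1, Pfn2, Tmsb10 and Cap1, the Arp2/3 genes not called, and Srf. Of the further list, 1 role enters the totals and is not reported here by itself. In that list 3 genes were matched through older symbols in RefSeq and 6 were not in the table. Gene positions are as in the deposited table, strands and promoter windows from RefSeq (GRCm38.p6), and transcript starts and exons from GENCODE M21 by RefSeq identifier.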

Additional observations from a re-analysis of the deposited data

How the results depend on the processing

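Over all genes the count of calls was 2584; it was 4429 with a replicate block and between 462 and 4699 with 1 library left out, and the other alternatives kept it within 1.5 times. The split of 1386 risen and 1198 fallen became 1481 and 676 on log2(FPKM + 1), 1500 and 687 on log2(FPKM + 0.1), and 1147 and 1505 with the offset for length and GC content. For the wider list the 34 calls became 63 with the replicate block, 54 without both empty vector replicate 1 and circSlc17a5 replicate 2, and between 6 and 64 with 1 library left out; the cause was not tested. The labels give no pairing of libraries by replicate number. Deviations from the group mean correlated at 0.219, 0.068 and 0.065 for same-numbered libraries, and at -0.314 to 0.310 for differently numbered ones. With 3 libraries per group, these values cannot decide whether the numbers pair the libraries. In the replicate block Limk1 and Ssh1 were called too. Cfl2, Wasl and Wipf1 kept direction and call in all 13 alternatives, with log2 fold changes of 1.07 to 1.21 for Cfl2, 0.29 to 0.50 for Wasl and 1.04 to 2.07 for Wipf1. Pfn1 was no longer called in 8 of the 13, all with the same direction. Dstn was called in 2 (without empty vector replicate 1, alone or with circSlc17a5 replicate 2), and no member changed sign in any of the 13. TPM was not among the alternatives, and mean TPM of Cfl1, Dstn, Limk2 and Wipf2 was higher in circSlc17a5 cells despite their negative log2 fold changes. The means were 798 against 754 TPM in empty vector cells for Cfl1 and 214 against 206 for Dstn. For Limk2 they were 31.2 against 30.3 TPM, and for Wipf2 4.90 against 4.57. Wipf1, at 34 to 43 counts in empty vector libraries, is the gene most limited by depth.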
